A study of Mus musculus with 8 samples.

Results

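The Tudor domain germ granule genes are a family of 10 named genes whose products carry Tudor domains and are known from, or studied beside, the granules of germ cells. They were Tdrd1, Tdrd3, Tdrd5, Tdrd6, Tdrd7, Tdrd9, Tdrd12, Tdrkh, Stk31 and Rnf17, and were picked by gene symbol. All 10 were found among 24243 gene names in the female table and among 23906 in the male table. The series measured RNA by sequencing in mouse fetal germ cells at embryonic day 15.5, when female germ cells are in meiotic prophase and male germ cells are in mitotic arrest. It asked how loss of Snf5 (Smarcb1), which encodes a core part of the chromatin remodeler SWI/SNF, alters the transcriptome. There were 2 control and 2 Snf5 CKO libraries of each sex, 8 libraries in all, described as biological duplicates. Per the study, the libraries held germ cells of differing numbers of mice, more in male control than in male Snf5 CKO.

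Snf5 CKO embryos carried a floxed and a deleted Snf5 allele together with TNAP-Cre (Snf5 fx/Δ + TNAP-Cre). Controls mixed cells of embryos of several genotypes, Snf5 fx/+, Snf5 fx/Δ and Snf5 fx/+ with TNAP-Cre, so that some control cells also lacked 1 functional allele. In TNAP-Cre mice Cre is expressed from the Alpl locus, which is active in primordial germ cells, and recombination of the floxed exon 1 was incomplete. All embryos carried the Oct4-EGFP transgene, and EGFP-positive cells were sorted from ovaries and testes. The sample labels name a C57BL/6 background, whereas the methods of the study describe a mixed background of C57BL/6, 129/Sv and ICR. Control and Snf5 CKO were compared within each sex, because the tables of the sexes were normalized separately.

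Tudor domains bind methylated arginine or lysine residues. In germ cells, many Tudor proteins bind the methylated arginines of PIWI proteins and hold them in perinuclear granules, where PIWI-interacting RNAs (piRNAs) are made. In fetal male germ cells these small RNAs guide the silencing of retrotransposons, and mutants of several Tudor genes are sterile as males.

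Values are FPKM (fragment abundance scaled to transcript length and library depth). From the steps between low values, the depth of the libraries in units of 1e6 fragments was about 20.8, 39.0, 25.8, 50.3 in females and 22.1, 41.9, 26.6, 32.5 in males, in the order control replicates 1 and 2, then Snf5 CKO replicates 1 and 2. These depths are approximate. Fold changes were fitted with limma on log2(FPKM + 1), a scale on which changes of low genes come out too small. A gene was tested where its mean reached 1 FPKM, and was called at an adjusted p below 0.05 with a change of 1 or more in size on the log2 scale. An exact permutation test of 2 against 2 libraries cannot give a p below 0.333 and was not used. The share of FPKM at loci without a gene name varied between libraries. In females it was 36.7% and 35.3% in control replicates 1 and 2 and 9.94% and 28.2% in Snf5 CKO. In males it was 6.56% and 42.1% in control and 5.46% and 35.4% in Snf5 CKO. The female shares were alike in control and lower in both Snf5 CKO libraries, while the male shares were low in replicate 1 of both groups. Rescaling to a common sum over named loci changed the call of 1 member within a sex, Tdrkh in males. Differences by replicate are also given for each tested member. Tdrd5 in male control replicate 1 carried the status FAIL, and its value of 345 FPKM lay above its own upper confidence bound of 223 FPKM.

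The targeted gene was examined first. Smarcb1 (chr10:75896769-75921614, mm10) in females was listed at 23.4 FPKM (replicate 1) and 22.3 FPKM (replicate 2) in control, against 4.24 and 2.47 FPKM in Snf5 CKO. The male libraries gave 141 FPKM (replicate 1) and 167 FPKM (replicate 2) in control, against 8.73 and 10.1 FPKM in Snf5 CKO. Both Snf5 CKO libraries lay below both control libraries in each sex. The log2 fold change was −2.48 (SE 0.24, limma adjusted p = 0.00029) in females and −3.90 (SE 0.18, limma adjusted p = 0.0022) in males. The value covers the whole gene, whereas only exon 1 is deleted.

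Of the 10 members, 9 were tested in each sex, and Tdrd6 was below 1 FPKM in both. In females, 6 members were lower in Snf5 CKO (Tdrd1, Tdrd7, Tdrd9, Tdrkh, Stk31 and Rnf17), where 21.8% of all tested genes were called lower. Tdrd3 and Tdrd12, 2 members, were higher, where 17.2% of all tested genes were called higher. In males, 6 members were lower (Tdrd1, Tdrd5, Tdrd7, Tdrd9, Stk31 and Rnf17), against 17.5% of all tested genes. With limma 0 members were higher in males, also 0 at an unadjusted p below 0.05, against 14.3% of all tested genes. In females the calls of Tdrd1 and Tdrd3 were lost with no filter on low values, that of Tdrkh with the median of ratios, and that of Tdrd3 also without control replicate 2 or Snf5 CKO replicate 1, whereas the male calls held in every alternative that gave a value. The median log2 fold change of the tested members was −1.43 in females and −1.78 in males, and that of all tested genes was −0.14 and −0.07. Values of control and Snf5 CKO did not overlap for 8 members in females and for 8 in males, the untested Tdrd6 among the latter, while this held for 81.5% and 74.4% of all tested genes. The deposited confidence bounds were wider, and did not overlap for 0 members in females and for 2 in males, Tdrd1 and Tdrd9, against 0.773% and 0.914% of all tested genes. In bulk samples, fewer cells of a type and less RNA per cell cannot be told apart.

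**Figure D1:**
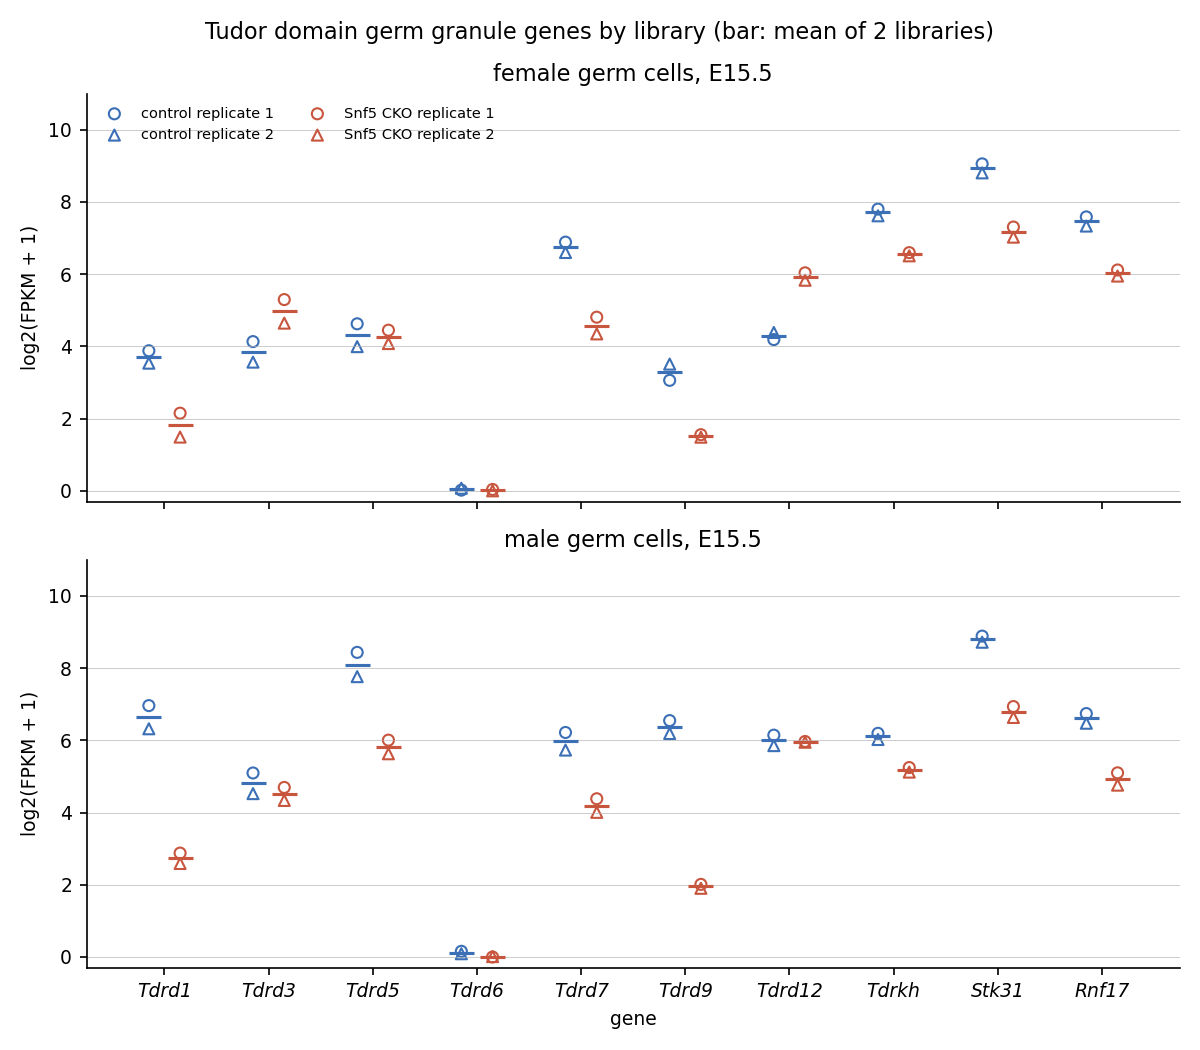
Level of each Tudor domain germ granule gene in every library, as log2(FPKM + 1), in females and males. Circles are replicate 1, triangles replicate 2, blue is control, red is Snf5 CKO and bars are group means; Tdrd1 and Tdrd9 show the widest gap between groups in males, and Tdrd12 and Tdrd3 are the members with higher Snf5 CKO values in females.

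With median of ratios scaling, the median over all genes shifted by 0.15 (log2) in females, and with a common sum over named loci that in males shifted by −0.16. Relative to the median of all genes, the female changes of called members ran from −2.03 for Tdrd7 to −1.02 for Tdrkh among those lower, and were 1.78 for Tdrd12 and 1.26 for Tdrd3. In males they ran from −4.34 for Tdrd9 to −1.60 for Rnf17. Under the common sum, 34.8% of called genes in males were higher (2447 lower and 1307 higher), against 45.1% as deposited (2160 lower and 1772 higher). With the median of ratios, 52.2% of called genes in females were higher (2125 lower and 2317 higher), against 44.0% as deposited (2543 lower and 2002 higher).

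Promoters of the members were searched for a fixed set of motifs. RefSeq windows of GRCm38.p6, from 250 bases before to 50 bases after a start site, were listed for 8 of the 10 members (14 windows), with none listed for Tdrd6 and Rnf17. They were searched on both strands for CACGTG, the palindromic E-box; CCTCAG, the core of the motif bound by STRA8 and MEIOSIN; GGCGGGA, an E2F-type motif; and TGACGTCA, the cAMP response element. CACGTG was found in 5 of the 14 windows, of 3 members, Tdrd1, Tdrd9 and Stk31, and in 7.15% of 32851 windows of all genes. CCTCAG was found in 9 of the 14 windows, of 6 members, Tdrd1, Tdrd7, Tdrd9, Tdrd12, Tdrkh and Stk31, and in 26.8% of all windows. GGCGGGA was found in 1 window, of Tdrd3, and in 11.3% of all windows, and TGACGTCA in 0 windows of the members and in 1.79% of all windows. Windows of 1 gene can overlap, and the matches in the windows of the members stood at 4 separate positions for CACGTG and at 8 for CCTCAG. No matches of different motifs overlapped in the members. The window of Tdrd1 whose start lay 4503 bases from the edge of the female locus had 0 motif matches. So had the windows of Tdrd7 at 6962 and 7496 bases, and its CCTCAG match was only in the window at that edge. The 250 bases before the start are given for the 3 members with CACGTG, all lower in both sexes, and for Tdrd12, higher in females. CACGTG was not in the windows of Tdrd7, lower in both sexes, of Tdrd5, lower in males, or of Tdrkh, lower in females. These 4 were chosen after their values and matches were seen. They lie at chr19:56825959-56826208 on the plus strand (Tdrd1), chr12:111971309-111971558 on the plus strand (Tdrd9), chr6:49395354-49395603 on the plus strand (Stk31) and chr7:35537745-35537994 on the minus strand (Tdrd12). Capitals mark CACGTG and CCTCAG, the latter written CTGAGG where it is on the opposite strand, if the whole match lies before the start. A CCTCAG match at −4 in Stk31 crosses the start and is not in capitals.
Tdrd1: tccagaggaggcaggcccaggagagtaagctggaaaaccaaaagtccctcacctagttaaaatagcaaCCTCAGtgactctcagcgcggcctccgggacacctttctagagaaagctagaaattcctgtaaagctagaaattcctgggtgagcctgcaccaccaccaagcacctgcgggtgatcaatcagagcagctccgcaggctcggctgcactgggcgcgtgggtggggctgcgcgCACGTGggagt
Tdrd9: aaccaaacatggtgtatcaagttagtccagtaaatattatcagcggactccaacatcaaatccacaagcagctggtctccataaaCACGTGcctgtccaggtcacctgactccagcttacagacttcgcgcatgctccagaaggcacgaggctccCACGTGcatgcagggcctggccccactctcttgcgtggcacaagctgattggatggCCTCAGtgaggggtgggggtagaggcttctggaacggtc
Stk31: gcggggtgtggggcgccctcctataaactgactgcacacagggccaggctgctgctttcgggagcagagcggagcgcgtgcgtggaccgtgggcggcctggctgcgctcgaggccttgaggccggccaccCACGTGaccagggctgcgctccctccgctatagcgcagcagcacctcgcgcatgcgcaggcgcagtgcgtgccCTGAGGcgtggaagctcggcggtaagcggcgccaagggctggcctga
Tdrd12: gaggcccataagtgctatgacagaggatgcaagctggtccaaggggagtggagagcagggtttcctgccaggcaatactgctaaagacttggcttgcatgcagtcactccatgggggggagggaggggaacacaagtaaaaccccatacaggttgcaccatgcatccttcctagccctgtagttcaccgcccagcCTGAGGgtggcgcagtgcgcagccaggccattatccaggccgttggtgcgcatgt
Counted from the start site, the first base of CACGTG lay at −11 in Tdrd1, at −165 and −95 in Tdrd9 and at −120 in Stk31. A match describes letters in these windows and not a bound site.

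**Figure D2:**
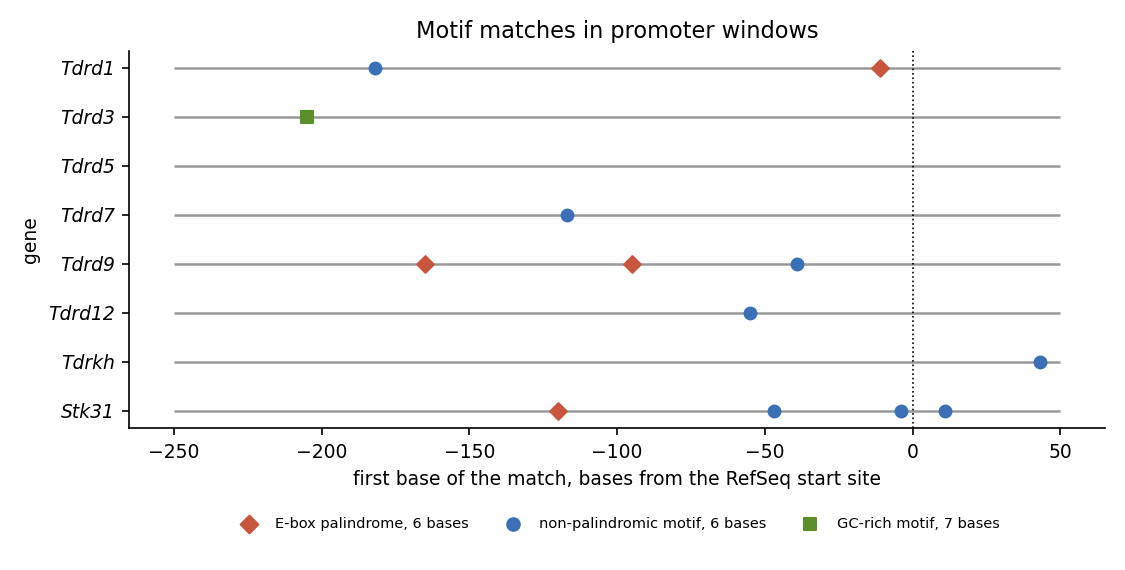
Position of the first base of each motif match relative to the RefSeq start site, in bases, in 1 promoter window (grey line) for each of 8 members. The window shown is that whose start lay nearest to the edge of the female locus. Red diamonds are the E-box palindrome, blue circles the non-palindromic motif of 6 bases and green squares the GC-rich motif of 7 bases; diamonds appear for Tdrd1, Tdrd9 and Stk31.

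Tdrd1 encodes a scaffold of the granules between mitochondria that binds the PIWI protein MILI. Tdrd1 (chr19:56826209-56870012) in females was listed at 13.7 FPKM (replicate 1) and 10.6 FPKM (replicate 2) in control, against 3.44 and 1.80 FPKM in Snf5 CKO. Male values were 123 FPKM (replicate 1) and 78.8 FPKM (replicate 2) in control, against 6.35 and 5.02 FPKM in Snf5 CKO. Every Snf5 CKO library lay below every control library in both sexes. Means in females were 12.1 ± 2.20 FPKM for control and 2.62 ± 1.15 FPKM for Snf5 CKO (SD, n = 2), 4.63-fold lower, with a log2 fold change of −1.89 (SE 0.27, limma adjusted p = 0.0013). With no filter on low values this female call was lost at the same fold change, with a limma adjusted p of 0.060, the highest over 13 alternatives. In males they were 101 ± 31.6 FPKM for control and 5.68 ± 0.939 FPKM for Snf5 CKO (SD, n = 2), 17.8-fold lower, with a log2 fold change of −3.91 (SE 0.27, limma adjusted p = 0.0022). The change was −1.73 in replicate 1 and −2.05 in replicate 2 in females, and −4.08 in replicate 1 and −3.73 in replicate 2 in males.

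Tdrkh encodes a Tudor protein of the mitochondrial surface that acts with the piRNA trimming enzyme PNLDC1. In females, Tdrkh (chr3:94413287-94431600) was listed at 222 FPKM (replicate 1) and 195 FPKM (replicate 2) in control, against 95.6 and 89.8 FPKM in Snf5 CKO. Its male values were 72.1 and 64.0 FPKM in control against 36.9 and 33.8 FPKM in Snf5 CKO. The groups did not overlap in either sex. The log2 fold change was −1.16 (SE 0.18, limma adjusted p = 0.0019) in females, 2.25-fold lower on the means, and it was −0.99 with the median of ratios, just short of the threshold. In males it was −0.93 (SE 0.17, limma adjusted p = 0.011), not called because the change was below 1 in size, although it was −1.11 with a common sum and −1.01 without control replicate 2. By replicate it was −1.21 in replicate 1 and −1.11 in replicate 2 in females, and −0.95 in replicate 1 and −0.90 in replicate 2 in males.

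Tdrd9 and Tdrd12 encode helicase proteins of the pathway that loads piRNAs onto MIWI2, the nuclear PIWI protein of fetal male germ cells. Tdrd9 (chr12:111971559-112068854) was listed in females at 7.33 FPKM (replicate 1) and 10.4 FPKM (replicate 2) in control, against 1.94 and 1.80 FPKM in Snf5 CKO. The male values of Tdrd9 were 92.4 and 71.9 FPKM in control against 3.03 and 2.74 FPKM in Snf5 CKO. Snf5 CKO libraries were low and close to each other, and control libraries high, without overlap. Tdrd9 was 4.74-fold lower in females, with a log2 fold change of −1.76 (SE 0.22, limma adjusted p = 0.00074). It was 28.5-fold lower in males, with means of 82.1 ± 14.5 FPKM for control and 2.88 ± 0.206 FPKM for Snf5 CKO (SD, n = 2), with a log2 fold change of −4.41 (SE 0.20, limma adjusted p = 0.0022). This was the largest fall among the tested members in males. The replicates gave −1.51 in replicate 1 and −2.02 in replicate 2 in females, and −4.53 in replicate 1 and −4.29 in replicate 2 in males.

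Tdrd12 (chr7:35466949-35537854) was not lower in either sex. In females it was listed at 17.2 FPKM (replicate 1) and 19.9 FPKM (replicate 2) in control, against 64.6 and 55.9 FPKM in Snf5 CKO, and Snf5 CKO libraries were the higher ones. In males it was listed at 69.6 FPKM (replicate 1) and 56.8 FPKM (replicate 2) in control, against 61.6 and 60.7 FPKM in Snf5 CKO, and the groups overlapped. Means in females were 18.5 ± 1.88 FPKM for control and 60.2 ± 6.14 FPKM for Snf5 CKO (SD, n = 2), 3.25-fold higher, with a log2 fold change of 1.65 (SE 0.18, limma adjusted p = 0.00041). In males the log2 fold change was −0.04 (SE 0.18, limma adjusted p = 0.87) and was not called, and it was 0.043 with the median of ratios and 0.10 without control replicate 1. The change was 1.85 in replicate 1 and 1.45 in replicate 2 in females, and −0.17 in replicate 1 and 0.09 in replicate 2 in males.

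Tdrd5, Tdrd7 and Tdrd6 encode proteins of granule assembly, and Tdrd6 is known for its place in the chromatoid body of spermatids. Tdrd5 (chr1:156255296-156303653) was listed in females at 23.7 FPKM (replicate 1) and 14.9 FPKM (replicate 2) in control, against 20.8 and 15.9 FPKM in Snf5 CKO, and the groups overlapped. In males Tdrd5 was at 345 FPKM (replicate 1) and 216 FPKM (replicate 2) in control, against 63.2 and 48.4 FPKM in Snf5 CKO, with both control libraries above both Snf5 CKO libraries. The female log2 fold change was −0.05 (SE 0.26, limma adjusted p = 0.89) and not called, and its sign turned to 0.11 with the median of ratios, 0.27 without control replicate 1 and 0.14 without Snf5 CKO replicate 2. In males Tdrd5 was 5.03-fold lower, with a log2 fold change of −2.28 (SE 0.30, limma adjusted p = 0.0047). Without control replicate 1, the library with the FAIL status, it was −1.95 and still called. For Tdrd5 the replicates gave −0.18 in replicate 1 and 0.09 in replicate 2 in females, and −2.43 in replicate 1 and −2.14 in replicate 2 in males.

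Tdrd7 (chr4:45965335-46034765) showed the largest fall among the members in females on the log2(FPKM + 1) scale, while Tdrd9 and Tdrd1 fell further on the means, and Tdrd1 also with a pseudocount of 0.1. It was listed at 117 FPKM (replicate 1) and 95.9 FPKM (replicate 2) in control, against 27.0 and 19.3 FPKM in Snf5 CKO in females, and at 73.3 FPKM (replicate 1) and 52.0 FPKM (replicate 2) in control, against 19.8 and 15.1 FPKM in Snf5 CKO in males. The groups did not overlap in either sex. Means in females were 107 ± 15.1 FPKM for control and 23.2 ± 5.43 FPKM for Snf5 CKO (SD, n = 2), 4.60-fold lower, with a log2 fold change of −2.17 (SE 0.22, limma adjusted p = 0.00033). The male log2 fold change was −1.78 (SE 0.25, limma adjusted p = 0.0057), 3.59-fold lower. Replicates gave −2.08 in replicate 1 and −2.25 in replicate 2 in females, and −1.83 in replicate 1 and −1.72 in replicate 2 in males.

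Tdrd6 (chr17:43615335-43630481) was listed at 0.0130 FPKM (replicate 1) and 0.0505 FPKM (replicate 2) in control, against 0.0261 and 0 FPKM in Snf5 CKO in females. Tdrd6 in males was at 0.115 FPKM (replicate 1) and 0.0644 FPKM (replicate 2) in control, against 0 and 0.00824 FPKM in Snf5 CKO. These values equal about 2, 14, 5 and 0 fragments in females and about 18, 19, 0 and 2 in males, over its longest annotated transcript, and no difference was tested. Among the tested members the fewest fragments, about 240, belonged to Tdrd9 in female Snf5 CKO replicate 1.

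Stk31 and Rnf17 encode a Tudor protein with a kinase-like domain and a RING finger protein with Tudor domains, the latter known to restrain piRNA amplification in meiotic male germ cells. Stk31 (chr6:49395604-49469502) was listed at 529.7 FPKM (replicate 1) and 446 FPKM (replicate 2) in control, against 157 and 129 FPKM in Snf5 CKO in females. Stk31 in males was at 471 FPKM (replicate 1) and 419 FPKM (replicate 2) in control, against 121 and 98.2 FPKM in Snf5 CKO. It was the most abundant member in all 8 libraries, and all Snf5 CKO values lay below all control values. The log2 fold change was −1.76 (SE 0.22, limma adjusted p = 0.00074) in females and −2.02 (SE 0.22, limma adjusted p = 0.0032) in males, 3.41-fold and 4.06-fold lower on the means.

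Rnf17 (chr14:56402564-56525031) was listed at 191 FPKM (replicate 1) and 159.9 FPKM (replicate 2) in control, against 68.3 and 60.6 FPKM in Snf5 CKO in females. Male values of Rnf17 were 106 and 87.8 FPKM in control against 33.3 and 26.1 FPKM in Snf5 CKO. Control libraries were the higher ones in both sexes without overlap. Rnf17 was 2.72-fold lower in females, with a log2 fold change of −1.43 (SE 0.19, limma adjusted p = 0.00089). It was 3.26-fold lower in males, with a log2 fold change of −1.68 (SE 0.21, limma adjusted p = 0.0042). For Stk31 the replicates gave −1.75 in replicate 1 and −1.78 in replicate 2 in females and −1.95 in replicate 1 and −2.08 in replicate 2 in males. For Rnf17 they gave −1.47 in replicate 1 and −1.38 in replicate 2 in females and −1.64 in replicate 1 and −1.71 in replicate 2 in males.

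Tdrd3 encodes a Tudor protein found in most cell types, where it acts with the topoisomerase TOP3B. Tdrd3 (chr14:87415964-87545508) was listed at 16.5 FPKM (replicate 1) and 10.8 FPKM (replicate 2) in control, against 38.2 and 24.0 FPKM in Snf5 CKO in females, with Snf5 CKO above control. In males it was listed at 33.2 FPKM (replicate 1) and 22.0 FPKM (replicate 2) in control, against 24.9 and 19.2 FPKM in Snf5 CKO, and the groups overlapped. Tdrd3 was 2.28-fold higher in females, with a log2 fold change of 1.12 (SE 0.29, limma adjusted p = 0.013). The call was lost without control replicate 2 (0.84), without Snf5 CKO replicate 1 (0.80) and with no filter on low values. The limma adjusted p was then 0.17, the highest over 13 alternatives. In males the log2 fold change was −0.29 (SE 0.27, limma adjusted p = 0.40), not called, and it ran from −0.58 without control replicate 2 to −0.0085 without control replicate 1. The replicates gave 1.16 in replicate 1 and 1.08 in replicate 2 in females and −0.40 in replicate 1 and −0.19 in replicate 2 in males.

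**Figure D3:**
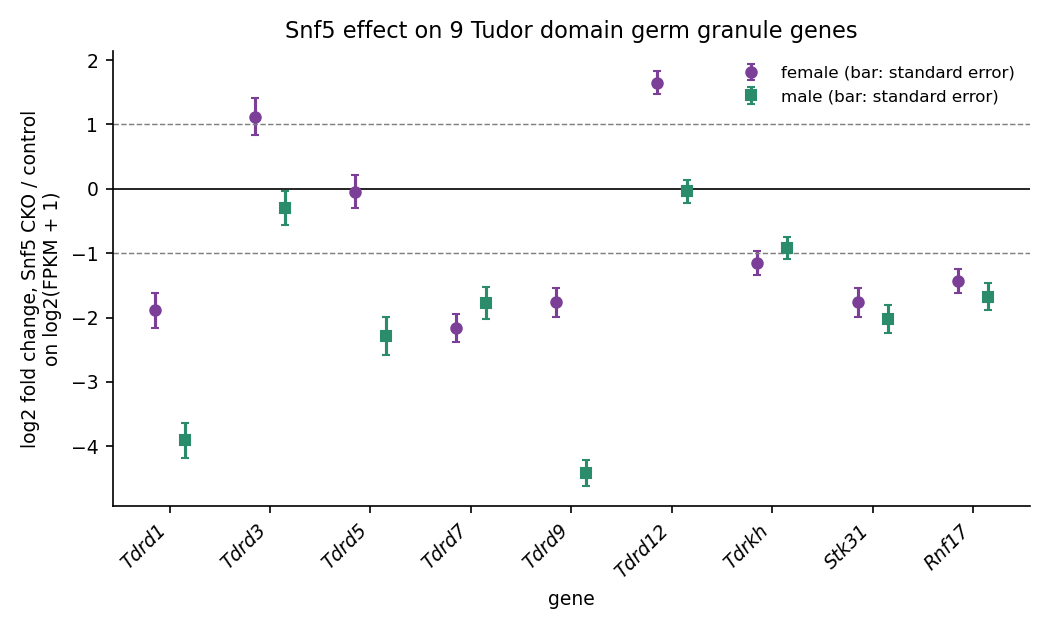
Log2 fold change of Snf5 CKO over control for the 9 tested members, with bars of 1 standard error. Purple circles are females, green squares are males and dashed lines mark a change of 1 in size. Tdrd1, Tdrd5 and Tdrd9 lie further down in males. For each of Tdrd7, Tdrkh, Stk31 and Rnf17 the female and male values lie close to each other.

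The difference of the Snf5 effect between the sexes was tested as an interaction, female minus male, over 10799 genes tested in both. It was called for 5 members, where 36.0% of all genes were called. The difference was 2.65 (SE 0.30, limma adjusted p = 0.00071) for Tdrd9, 2.24 (SE 0.43, limma adjusted p = 0.0052) for Tdrd5 and 2.02 (SE 0.42, limma adjusted p = 0.0075) for Tdrd1, all with the lower value in males. It was 1.69 (SE 0.23, limma adjusted p = 0.0014) for Tdrd12. For Tdrd3 it was 1.42 (SE 0.44, limma adjusted p = 0.035), and this call was lost with a common sum (1.62), with no filter on low values, and without female control replicate 2 (1.13), female Snf5 CKO replicate 1 (1.09), male control replicate 1 (1.13) or male Snf5 CKO replicate 2 (1.24). The difference was not called for Tdrd7 (−0.39), Tdrkh (−0.23), Stk31 (0.25) or Rnf17 (0.25). Leaving out 1 library at a time gave −0.63 to −0.14 for Tdrd7, −0.32 to −0.14 for Tdrkh, 0.10 to 0.40 for Stk31 and 0.080 to 0.42 for Rnf17, none of them called. The fall of the targeted gene Smarcb1 also differed between the sexes, by 1.41 (SE 0.31, limma adjusted p = 0.0086), with the lower value in males, and its part in the differences of the members was not tested.

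Levels were also ordered by FPKM, which is per length. In female control the order was Stk31, Tdrkh, Rnf17, Tdrd7, Tdrd5, Tdrd12, Tdrd3, Tdrd1, Tdrd9 and Tdrd6. There Tdrd5 overlapped Tdrd12 and Tdrd3, and Tdrd3 overlapped Tdrd1. In female Snf5 CKO, Tdrd12 stood next to Rnf17 and overlapped it, Tdrd3, Tdrd7 and Tdrd5 overlapped in turn, and Tdrd1 overlapped Tdrd9. In male control, Stk31 and Tdrd5 led, and the neighbours from Tdrd1 through Rnf17, Tdrd9, Tdrkh and Tdrd12 to Tdrd7 overlapped in turn. In male Snf5 CKO, Tdrd12 and Tdrd5 overlapped behind Stk31, Tdrd3 overlapped Tdrd7, and Tdrd1 and Tdrd9 stood lowest above Tdrd6. The summed level of the 10 members was 1138 and 963 FPKM in female control and 477 and 398 FPKM in female Snf5 CKO. In males it was 1386 and 1069 FPKM in control and 370.3 and 309 FPKM in Snf5 CKO. Stk31 made up 46.6% and 46.3% of that sum in female control and 32.9% and 32.4% in female Snf5 CKO, and 34.0% and 39.2% in male control and 32.7% and 31.8% in male Snf5 CKO.

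Patterns over the 8 libraries were compared by the root mean square difference of log2(FPKM + 1), centred on the mean of each table, with 10798 other genes. Nearest to Tdrd7 were Tbc1d1 (0.044), Ints6 (0.072) and Tanc2 (0.086), where the median of all genes was 1.04. Nearest to Tdrd9 were Uchl1 (0.25), Clgn (0.26) and Mageb4 (0.32), where the median of all genes was 1.71. Among the members, the closest pairs were Stk31 and Rnf17 (0.17), Tdrd7 and Stk31 (0.19), Tdrd7 and Rnf17 (0.28), Tdrkh and Rnf17 (0.29), Tdrd1 and Tdrd9 (0.32) and Tdrd3 and Tdrd12 (0.32). They differed in the share of all genes nearer to the first of the pair than the other member was. This share was 0.222% for Stk31 and Rnf17, 0.278% for Tdrd7 and Stk31, 1.12% for Tdrd7 and Rnf17, 10.4% for Tdrkh and Rnf17, 0.0741% for Tdrd1 and Tdrd9 and 4.87% for Tdrd3 and Tdrd12. Tdrd9 and Tdrd12 were the farthest pair, 1.96 apart.

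Other genes of the PIWI and piRNA pathway were described from a list of 17, all tested in both sexes. In females 7 were lower (Piwil4, Mael, Gtsf1, Mov10l1, Gpat2, Henmt1 and Tex15) and 2 were higher (Prmt5 and Wdr77), with a median log2 fold change of −0.56. In males 12 were lower (Piwil1, Piwil2, Piwil4, Mael, Asz1, Gtsf1, Mov10l1, Gpat2, Pnldc1, Henmt1, Exd1 and Tex15), with a median of −1.43, and with limma 0 were higher. With the threshold of 1 on the change kept, 0 were also higher at an unadjusted p below 0.05. Below that threshold, Wdr77 was higher in males, with a log2 fold change of 0.77 (limma unadjusted p = 0.0051). In females Pnldc1 (0.77, limma adjusted p = 0.014) and Pld6 (0.55, limma adjusted p = 0.045) were higher below the threshold. Exd1 (−0.87, limma adjusted p = 0.036) and Piwil2 (−0.56, limma adjusted p = 0.024) were lower below it in females. Of all tested genes, 21.8% were lower and 17.2% higher in females, with a median of −0.14, and 17.5% and 14.3% in males, with a median of −0.07. The call of Piwil4 in females was lost without Snf5 CKO replicate 2 (−0.87). With no filter on low values, the calls of Piwil4, Mov10l1 and Henmt1 in females and of Piwil2 in males were lost. Exd1 in females, not called, was called without control replicate 2 (−1.17) or Snf5 CKO replicate 1 (−1.17), and its male call was lost without control replicate 1 (−1.01).

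In females, Gtsf1, a piRNA pathway zinc finger protein, was listed at 55.8 FPKM (replicate 1) and 87.4 FPKM (replicate 2) in control, against 9.86 and 13.8 FPKM in Snf5 CKO. Gpat2, an acyltransferase family member of the mitochondrial surface, was at 494 and 489 FPKM in control against 99.6 and 99.2 FPKM in Snf5 CKO. Mael, a granule protein, was at 669.8 and 631 FPKM in control against 203 and 140.0 FPKM in Snf5 CKO, and Mov10l1, the helicase that starts piRNA processing, at 239 and 188 FPKM in control against 80.2 and 56.6 FPKM in Snf5 CKO. None of these overlapped between groups. Their log2 fold changes were −2.48, −2.30, −1.94 and −1.64, with limma adjusted p of 0.00041, 0.00018, 0.00089 and 0.0013. Prmt5, the enzyme that methylates PIWI arginines, was at 23.4 and 21.1 FPKM in control against 72.4 and 62.0 FPKM in Snf5 CKO, higher by a log2 fold change of 1.55 (SE 0.17, limma adjusted p = 0.00049).

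In males, Piwil4, which encodes MIWI2, was listed at 166 FPKM (replicate 1) and 132 FPKM (replicate 2) in control, against 3.17 and 3.53 FPKM in Snf5 CKO. Gtsf1 was at 435 and 569.9 FPKM in control against 15.9 and 30.8 FPKM in Snf5 CKO in males. Henmt1, the methyltransferase of piRNA ends, was at 25.3 and 26.7 FPKM in control against 1.05 and 1.24 FPKM in Snf5 CKO. Snf5 CKO values were far below control values without overlap. Tex15, whose locus was merged with Ppp2cb in the female table, was at 84.4 and 62.0 FPKM in control against 7.67 and 6.68 FPKM in Snf5 CKO in males. Log2 fold changes were −5.10 (SE 0.19, limma adjusted p = 0.0022) for Piwil4, −4.43 (SE 0.35, limma adjusted p = 0.0023) for Gtsf1, −3.66 (SE 0.18, limma adjusted p = 0.0022) for Henmt1 and −3.17 (SE 0.22, limma adjusted p = 0.0022) for Tex15. The fall of Piwil4 was 44.5-fold on the means.

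**Figure D4:**
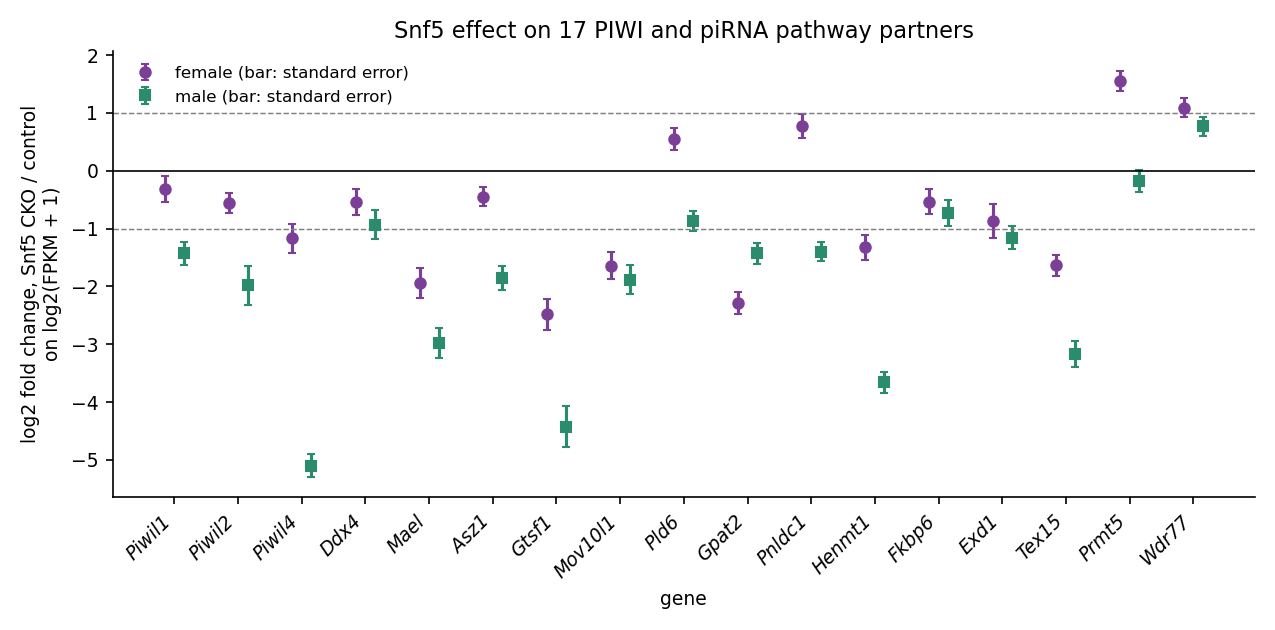
Log2 fold change of Snf5 CKO over control for the 17 genes of the PIWI and piRNA pathway, with bars of 1 standard error. Purple circles are females, green squares are males and dashed lines mark a change of 1 in size; Piwil4 and Gtsf1 lie lowest in males, and Prmt5 and Wdr77 lie above 1 in females.

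Tudor domain genes used in most cells gave 20 further genes, all tested. In females 6 were lower (Setdb1, Kdm4b, Kdm4c, Phf20l1, Arid4b and Zgpat) and 5 higher (Akap1, Kdm4a, Mtf2, Phf19 and Arid4a), with a median log2 fold change of 0.10. In males 1 was lower (Phf20) and 3 were higher (Akap1, Uhrf1 and Uhrf2), with a median of 0.07. Beside these stand 21.8% lower and 17.2% higher of all tested genes in females, with a median of −0.14, and 17.5% and 14.3% in males, with a median of −0.07. The male call of Phf20 was lost with the median of ratios (−0.99) and without control replicate 1 (−0.97), when 0 genes were lower. With a common sum, a replicate block, or without control replicate 2 or Snf5 CKO replicate 1, 2 genes were lower. The male call of Akap1 was lost with no filter on low values, with a common sum (0.85) and without control replicate 2 (0.82) or Snf5 CKO replicate 1 (0.74). In females that of Mtf2 was lost without control replicate 1 (0.93) or Snf5 CKO replicate 2 (0.98), and that of Arid4a without control replicate 2 (0.98) and with no filter. The female calls of Setdb1 and Phf20l1 were also lost with no filter. The 6 lower genes in females had log2 fold changes from −1.87 for Setdb1 to −1.38 for Zgpat, whose locus was merged with Lime1. Setdb1, a histone methyltransferase, was at 226 and 157 FPKM in control against 61.3 and 41.9 FPKM in Snf5 CKO, a log2 fold change of −1.87 (SE 0.26, limma adjusted p = 0.0012). Phf19, a Polycomb-associated protein, was listed in females at 5.59 and 7.66 FPKM in control against 75.1 and 65.6 FPKM in Snf5 CKO, a log2 fold change of 3.24 (SE 0.20, limma adjusted p = 0.00011). Kdm4a, a histone demethylase, was at 2.47 and 2.99 FPKM in control against 14.5 and 13.2 FPKM in Snf5 CKO, a log2 fold change of 1.99 (SE 0.19, limma adjusted p = 0.00029). In males Uhrf1, which acts in maintaining DNA methylation, was at 26.9 and 20.2 FPKM in control against 67.9 and 56.8 FPKM in Snf5 CKO, a log2 fold change of 1.38 (SE 0.21, limma adjusted p = 0.0074). Uhrf2 was at 18.0 and 12.9 FPKM in control against 47.3 and 30.5 FPKM in Snf5 CKO, a log2 fold change of 1.26 (SE 0.29, limma adjusted p = 0.021), and this call was lost without control replicate 2 (1.04) or Snf5 CKO replicate 1 (0.96), with a common sum (1.08) and with no filter on low values.

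Some markers of germ cells and of other cell types moved with the groups and others did not, and their part in the members' changes was not tested. Germ cell markers, 6 of 6 found, summed to 1883 and 1924 FPKM for control and 1719 and 1653 FPKM for Snf5 CKO in females and 3454 and 3575 FPKM for control and 2332 and 2220.0 FPKM for Snf5 CKO in males. Dazl had the highest mean over the 4 libraries of each sex, although Mael was above it in both male control libraries (992 and 1005 FPKM against 697 and 606 FPKM) and Dnd1 in male control replicate 2 (729 FPKM). In females 1 was lower (Mael) and 3 higher (Dnd1, Tex19.1 and Pou5f1), and in males 2 were lower (Mael and Dnd1) and, with limma, 0 higher, also 0 at an unadjusted p below 0.05. Pou5f1, whose promoter drives the sorted transgene, was at 8.63 and 16.7 FPKM in control against 295 and 333 FPKM in Snf5 CKO in females and 399 and 436 FPKM in control against 620.4 and 648 FPKM in Snf5 CKO in males. In females the Snf5 CKO libraries were far above control for Pou5f1. The lower male sum in Snf5 CKO was not shared by all markers. Male means in control and Snf5 CKO were 998 and 128 FPKM for Mael and 599 and 172 FPKM for Dnd1. They were 511 and 268 FPKM for Ddx4 and 337 and 181 FPKM for Tex19.1. Dazl, at 651 and 893 FPKM, and Pou5f1, at 418 and 634 FPKM, had the higher mean in Snf5 CKO. Mael and Ddx4 also stand in the PIWI and piRNA pathway list.

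Sertoli cell markers, 7 of 7 found, were all tested in males, and 7 were higher in Snf5 CKO. They summed to 57.4 and 38.9 FPKM for control and 245 and 285 FPKM for Snf5 CKO. The highest mean over the 4 libraries was that of Aard (20.6, 11.8, 110.0, 101 FPKM), in the order control replicates 1 and 2 and Snf5 CKO replicates 1 and 2, while Amh (17.3, 16.5, 69.7, 119.5 FPKM) was above it in replicate 2 of both groups. In females 3 were tested and 1 was higher, Aard, and they summed to 5.21 and 7.22 FPKM for control and 16.9 and 15.8 FPKM for Snf5 CKO, with Dhh at 0 in both controls and Cldn11 at 0 in control replicate 1. Most of the female sum came from Aard (2.72 and 4.35 FPKM in control against 9.63 and 10.3 FPKM in Snf5 CKO) and Gata4 (1.90 and 1.79 FPKM in control against 4.82 and 3.30 FPKM in Snf5 CKO), while Amh was lower in Snf5 CKO (0.123 and 0.112 FPKM in control against 0.0740 and 0.0125 FPKM in Snf5 CKO) and Sox9 overlapped between groups. Pre-granulosa markers, 6 of 6 found, summed to 6.35 and 9.73 FPKM for control and 26.0 and 24.9 FPKM for Snf5 CKO in females, and 3 were higher. Fst and Amhr2 were the most abundant of them, at 1.30, 2.73, 8.33, 7.35 FPKM for Fst and 1.88, 2.34, 6.48, 8.0 FPKM for Amhr2. In males they summed to 6.79 and 7.19 FPKM for control and 30.7 and 32.9 FPKM for Snf5 CKO, led by Amhr2 (4.23, 3.18, 25.0, 27.2 FPKM), 2 were higher and Foxl2 was at 0 in control replicate 1. Most of that male sum in Snf5 CKO was Amhr2, while Fst overlapped between groups (1.44 and 3.09 FPKM in control against 1.36 and 2.32 FPKM in Snf5 CKO) and Wnt4 was lower in Snf5 CKO (0.196 and 0.378 FPKM in control against 0.172 and 0.0469 FPKM in Snf5 CKO). Foxl2 in males stayed near 0, at 0 and 0.00951 FPKM in control against 0.105 and 0.0245 FPKM in Snf5 CKO. The sums of both lists were thus higher in Snf5 CKO in both sexes, but not every marker was. Whether the lists tell these cell types apart was not tested.

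Leydig cell markers, 5 of 5 found, went the other way in males, where they summed to 85.7 and 58.2 FPKM for control and 19.2 and 15.1 FPKM for Snf5 CKO and 3 were lower. In females they summed to 4.74 and 4.89 FPKM for control and 12.0 and 11.8 FPKM for Snf5 CKO, 1 was higher, and Cyp11a1 and Cyp17a1 were at 0 in control replicate 2. Insl3, at a locus merged with Jak3, was the most abundant in both sexes, and made up most of the female sum (3.13 and 3.99 FPKM in control against 8.52 and 10.1 FPKM in Snf5 CKO). Stromal markers, 5 of 5 found, summed to 6.34 and 2.33 FPKM for control and 1.46 and 1.77 FPKM for Snf5 CKO in females and 13.2 and 6.72 FPKM for control and 2.61 and 2.11 FPKM for Snf5 CKO in males, and 1 and 2 were lower. Col1a1 had the highest mean over the 4 libraries of each sex, although Col1a2 was above it in both female Snf5 CKO libraries (0.594 and 0.457 FPKM against 0.318 and 0.446 FPKM). Blood and endothelial markers, 6 of 7 found in females and 7 of 7 in males, summed to 23.8 and 98.7 FPKM for control and 27.4 and 83.9 FPKM for Snf5 CKO in females and 60.5 and 99.7 FPKM for control and 60.0 and 64.4 FPKM for Snf5 CKO in males, with Cdh5 and Ptprc at 0 in some female libraries and Ptprc in a male library. Hbb-bs, at a locus merged with Hbb-b1, had the highest mean over the 4 libraries of each sex. In females 1 was higher, Pecam1, which in Snf5 CKO was at 24.3 and 19.7 FPKM against 1.47 and 35.7 FPKM for Hbb-bs. The endothelial markers Cdh5 and Kdr, below 1 FPKM and not tested, were lower in Snf5 CKO without overlap in both sexes. In females Cdh5 was at 0.106 and 0.131 FPKM in control against 0.00946 and 0 FPKM in Snf5 CKO and Kdr at 0.390 and 0.149 FPKM in control against 0.0954 and 0.0595 FPKM in Snf5 CKO. No list had a marker at 0 in all 4 libraries of a sex.

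**Figure D5:**
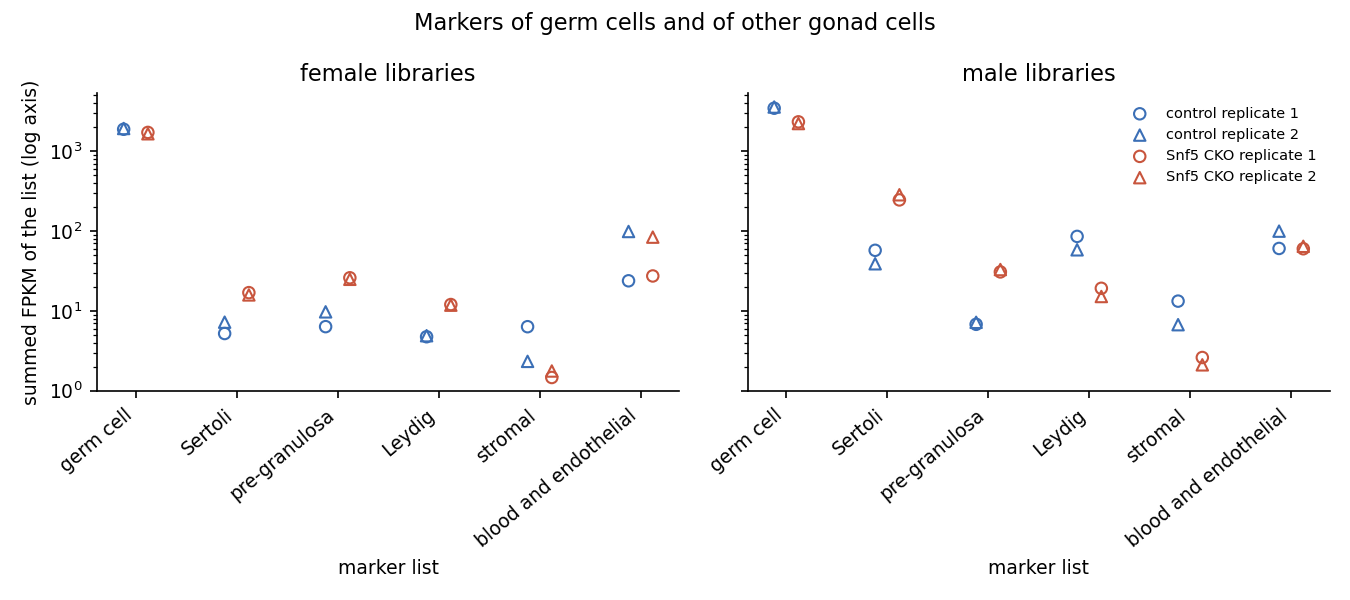
Summed FPKM on a log axis for each list of cell type markers in every library, in females and males, with blue for control and red for Snf5 CKO, circles for replicate 1 and triangles for replicate 2. Sums of the Sertoli and pre-granulosa lists, though not every marker in them, are higher in Snf5 CKO in both sexes. Sums of the Leydig and stromal lists are lower in Snf5 CKO in males.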

How the data were processed

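Per the labels and methods of the study, the authors sorted EGFP-positive germ cells, amplified cDNA with SMART-Seq v4, made Nextera XT libraries and sequenced paired ends. The methods name different instruments and read lengths without saying which library had which. Reads were aligned to mm10 with TopHat2 2.2.1 and quantified with Cuffdiff 2.1.1, per the submitters' processing notes, whereas the methods of the study give other version numbers and name Cufflinks. The deposited values are FPKM per locus with confidence bounds, 1 table for each sex, and the kit does not mark strand.

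From these, named loci averaging 1 FPKM or more across 4 libraries were tested (11642 in females, 12368 in males), each gene at its locus of highest mean. Loci without a gene name were left out. log2(FPKM + 1) was fitted with limma 3.58.1 in R 4.3.3 (lmFit, eBayes with a trend), with Benjamini-Hochberg adjustment over all tested genes. The fit was tested on simulated data in which libraries varied independently. That simulation therefore did not cover the correlation between replicates of the same number given below. Python 3.11.15 and matplotlib 3.10.9 made tables and figures. Members and lists were chosen with earlier results of these data known. The depth estimate was chosen after seeing the data.

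Named genes were all members, Smarcb1, the called genes of the partner list with library values for the 4 of largest change per sex, the 2 called broad Tudor genes of largest change per sex, the 3 genes most like the member of largest fall per sex on log2(FPKM + 1), and the marker of highest mean in each list. Library values of Pou5f1, Prmt5 and other markers, further broad Tudor genes, the member pairs and the printed promoters were chosen after their values were seen. The fits held no replicate term, and a replicate block was an alternative. Column headers of the male table name replicates 1 and 2 as experiments, and those of the female table give the numbers alone. The deviations of control and Snf5 CKO with the same number correlated across genes at 0.504 in females and 0.595 in males. Alternatives were another pseudocount, other filters and scalings, no trend, a replicate block, summed loci, loci with status OK and leaving out each library.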

Additional observations from a re-analysis of the deposited data

Results flagged for a closer look

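The effect of Snf5 CKO differed between females and males by the interaction test for 5 members, where 36.0% of all 10799 genes were called, and for the targeted gene Smarcb1. Given as female minus male log2 fold change, the difference was 2.02 for Tdrd1, 1.42 for Tdrd3, 2.24 for Tdrd5, 2.65 for Tdrd9, 1.69 for Tdrd12 and 1.41 for Smarcb1. The call of Tdrd3 was lost in 6 of 17 alternatives, with a limma adjusted p of up to 0.11, while those of Tdrd1, Tdrd5, Tdrd9, Tdrd12 and Smarcb1 were kept in every alternative that gave a value. Tdrd1, Tdrd5, Tdrd9 and Smarcb1 had the lower value in males, and Tdrd3 and Tdrd12 had the higher value in females. The sexes were in separately normalized tables, so that each effect was taken within its table. No explanation was tested.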

How the results depend on the processing

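Of the gene results under settings other than leaving out a library, 666 kept their direction and side of the threshold, 17 lost the call, 1 gained it and 3 turned sign. Leaving out a library gave 324, 16, 3 and 5. Where fewer libraries or other genes entered a fit that is its construction, and other causes were not tested. With no filter on low values, 1 member was higher in females, 4 partners were lower in females, 1083 of all genes were higher in males and 1 broad Tudor gene was higher in males. With a mean of at least 5 FPKM, 1353 of all genes were lower in males. With a common sum, 2 broad Tudor genes were lower and 1 higher in males, and with a median of ratios 0 were lower, against 1 lower and 3 higher as deposited. With the replicate block, 2 broad Tudor genes were lower in males, and it changed no other call count by over 1.5 times and no call of a member. Leaving out a library gave 1 to 2 members higher in females, 0 to 2 broad Tudor genes lower in males and 1 to 4 higher. The log2 fold change turned sign for Tdrd5 in females with the median of ratios (0.11), without control replicate 1 (0.27) and without Snf5 CKO replicate 2 (0.14). It did so for Tdrd12 in males with the median of ratios (0.043) and without control replicate 1 (0.10), and for Kdm4a in males with the median of ratios (0.047), without control replicate 1 (0.13) and without Snf5 CKO replicate 2 (0.11). Leaving out each library gave −0.36 to 0.27 for Tdrd5, −0.19 to 0.10 for Tdrd12 and −0.20 to 0.13 for Kdm4a. When a library was left out, the lone library was assumed to vary like the other group. Depth limits Tdrd6, which had at most about 19 fragments in a library.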
